A study of Mus musculus with 8 samples.

Results

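The genes described here carry out or control de novo lipogenesis from cytosolic acetyl-CoA in the liver: *Acly*, *Acss2*, *Slc25a1*, *Acaca*, *Acacb*, *Fasn*, *Me1*, *Thrsp*, *Mid1ip1* and *Srebf1*. They were taken by gene symbol, because ACLY is the reported target of isoginkgetin (ISOGK), a plant biflavone. The rule used no measured value, but the genes were chosen with earlier results of these data known. All 10 symbols were among the 16540 rows of the count table, and all 10 passed the filter on low counts that left 12307 genes to be tested. Liver RNA was sequenced from male *Apoe*-/- mice, which lack apolipoprotein E and develop hypercholesterolaemia. According to the paper, its *Apoe*-/- mice were fed a high cholesterol (Western) diet before and during dosing. The 4 ISOGK mice received 20 mg/kg ISOGK per day for 8 weeks, and the 4 vehicle mice received the DMSO solvent. Genotype, sex and diet were shared by both groups, and no wild-type or chow-fed liver was analysed here. The labels number the samples of a group without naming the animal behind each, and the p-values measure the spread between these samples.

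Cytosolic acetyl-CoA is made by a pair of routes. In the citrate route, the carrier SLC25A1 exports citrate from mitochondria and ACLY cleaves it to acetyl-CoA and oxaloacetate, whereas in the acetate route ACSS2 activates free acetate. Acetyl-CoA carboxylases then make malonyl-CoA, which fatty acid synthase joins into palmitate with NADPH that malic enzyme helps to supply, and the transcription factor SREBP-1c, encoded by *Srebf1*, drives most genes of the chain in the fed liver.

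The libraries held 17457106 to 24461854 counts. No pair of libraries of a group agreed within sampling noise (chi-square per gene 18.1 to 99.8), so each was counted as a separate sample. *Apoe* had 3252 to 6489 counts per library, so its transcript count does not check the genotype. The 7 hepatocyte markers were all present and none differed, with summed levels of 167124 to 181207 CPM, counts scaled to library size, in vehicle and 153466 to 192417 CPM in ISOGK mice. Of 8 adipocyte markers, a cell type that also makes fat, 4 were among the symbols analysed, summing to 6.27 to 9.07 CPM in vehicle and 6.84 to 9.66 CPM in ISOGK mice. The 8 skeletal muscle markers summed to 67.6 CPM in vehicle mouse 4 alone. They summed to 0, 0.356 and 0.506 CPM in vehicle mice 1, 2 and 3, and to at most 0.576 CPM in any ISOGK mouse. Of 8 Kupffer cell and macrophage markers 1, *Cd68*, fell, and their sum was 1065 to 1370 CPM in vehicle and 851 to 1101 CPM in ISOGK mice, whereas of 5 cholangiocyte markers 1, *Sox9*, rose (27.5 to 34.8 against 28.2 to 69.1 CPM). No tested marker of sinusoidal endothelial cells, stellate cells, lymphocytes or pancreatic acinar cells was called, and the part of other cell types in the results was not tested. With scaling by TMM, edgeR's trimmed mean of M-values, 423 genes were lower and 506 higher in ISOGK, and with library size alone 804 were lower and 262 higher, and the median log2 fold change of all genes moved by -0.13.

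Promoter sequences were read for all 10 genes, those that fell and those that did not, in the mouse RefSeq windows on GRCm38.p6. Each window runs from 250 bases before to 50 bases after an annotated start, and 13 windows covered all 10 genes. Shown are the gene of the reported target (*Acly*, chr11:100527951-100528250), the citrate carrier that did not pass the test (*Slc25a1*, chr16:17928170-17928469), the synthase (*Fasn*, chr11:120824498-120824797) and the gene with the lowest fold (*Thrsp*, chr7:97417501-97417800). All 4 are on the minus strand and are written 5′ to 3′, with capitals marking matches on either strand to the E-box CACGTG, the CCAAT box and the GC box GGGCGG.
Acly: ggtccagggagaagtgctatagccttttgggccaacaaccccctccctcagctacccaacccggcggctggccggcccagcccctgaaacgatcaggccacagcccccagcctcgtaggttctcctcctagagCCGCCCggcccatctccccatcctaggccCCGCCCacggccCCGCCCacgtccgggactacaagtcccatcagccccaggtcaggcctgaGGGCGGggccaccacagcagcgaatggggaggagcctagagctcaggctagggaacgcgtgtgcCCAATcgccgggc
Slc25a1: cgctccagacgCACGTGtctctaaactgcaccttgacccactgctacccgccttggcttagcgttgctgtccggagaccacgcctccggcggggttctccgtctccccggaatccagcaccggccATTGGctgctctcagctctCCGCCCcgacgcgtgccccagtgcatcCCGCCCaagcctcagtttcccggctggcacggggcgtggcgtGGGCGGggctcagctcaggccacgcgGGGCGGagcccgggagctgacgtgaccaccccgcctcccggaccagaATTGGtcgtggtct
Fasn: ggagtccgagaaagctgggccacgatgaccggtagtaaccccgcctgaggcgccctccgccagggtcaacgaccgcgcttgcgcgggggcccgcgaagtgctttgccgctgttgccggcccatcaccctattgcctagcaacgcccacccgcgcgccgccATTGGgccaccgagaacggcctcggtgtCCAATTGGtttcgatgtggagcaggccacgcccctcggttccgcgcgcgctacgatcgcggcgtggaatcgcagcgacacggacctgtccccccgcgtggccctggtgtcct
Thrsp: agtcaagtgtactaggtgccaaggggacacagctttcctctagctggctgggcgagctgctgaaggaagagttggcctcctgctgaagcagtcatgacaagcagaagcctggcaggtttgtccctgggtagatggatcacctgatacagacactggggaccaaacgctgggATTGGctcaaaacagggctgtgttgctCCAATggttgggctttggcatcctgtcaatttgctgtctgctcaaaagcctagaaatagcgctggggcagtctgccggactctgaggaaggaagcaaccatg

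The CCAAT box, a binding sequence of the factor NF-Y, occurred in 9 of the 13 windows, from 8 of the 10 genes, and 37.4% of all 32851 RefSeq windows held it. *Fasn* had it at positions -90, -62 and -59, counted from the start site as position 1, of which the last 2 overlap on opposite strands. *Thrsp* had it at -79 and -52. The GC box occurred in 7 of the 13 windows, from 6 genes (35.7% of all windows), and stood 4 times in the *Acly* window, at -117, -88, -76 and -27. The E-box occurred in 1 of the 13 windows, that of *Slc25a1*, at -239 (7.15% of all windows), and the sterol regulatory element searched as TCACNCCAC occurred in none (1.24% of all windows). *Slc25a1* therefore carried CCAAT boxes and GC boxes as *Acly* did. *Acaca* and *Mid1ip1*, which fell, had no CCAAT box in their windows. *Acss2*, *Slc25a1*, *Acacb* and *Me1*, which were not called, each had it in a window. The only *Acaca* window, chr11:84195188-84195487, lies inside the gene, which starts at 84129672. The same holds for *Acacb* (window from 114165268, gene from 114146535) and *Mid1ip1* (window from 10717115, gene from 10715013). Sequence at the outermost annotated starts of *Acaca*, *Acacb* and *Mid1ip1* was therefore not read. The GC box was found for *Acly*, *Mid1ip1* and *Srebf1*, which fell, and for the uncalled *Acss2*, *Me1* and *Slc25a1*. Neither box was confined to the genes that fell. These matches describe letters in a window and are not binding sites.

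In ISOGK livers, 6 of the 10 genes fell and none rose in edgeR's quasi-likelihood test with Benjamini-Hochberg adjustment over all genes tested (adjusted p under 0.05). Among all genes tested, 3.44% fell and 4.11% rose. Since earlier results were known when the 10 genes were chosen, these shares are a description and no independent test. At an unadjusted p under 0.05 the counts for the 10 genes were 7 lower and 1 higher, DESeq2 gave 6 and 1, and limma-voom 6 and 0. The genes that fell were the cleavage enzyme *Acly*, the cytosolic carboxylase *Acaca*, the synthase *Fasn*, the regulator *Srebf1* and the carboxylase regulators *Thrsp* and *Mid1ip1*. *Fasn*, *Thrsp*, *Mid1ip1* and *Srebf1* also passed the study's fold threshold of a log2 change below -1. Of all genes tested, 0.626% had both an adjusted p under 0.05 and a log2 change below -1. In the same 6 genes every ISOGK mouse was below every vehicle mouse, a pattern found in 7.36% of all genes. The median log2 fold change of the 10 genes was -0.68, against 0.0018 over all genes. In whole liver, fewer cells of a type and less RNA per cell cannot be told apart.

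**Figure D1:**
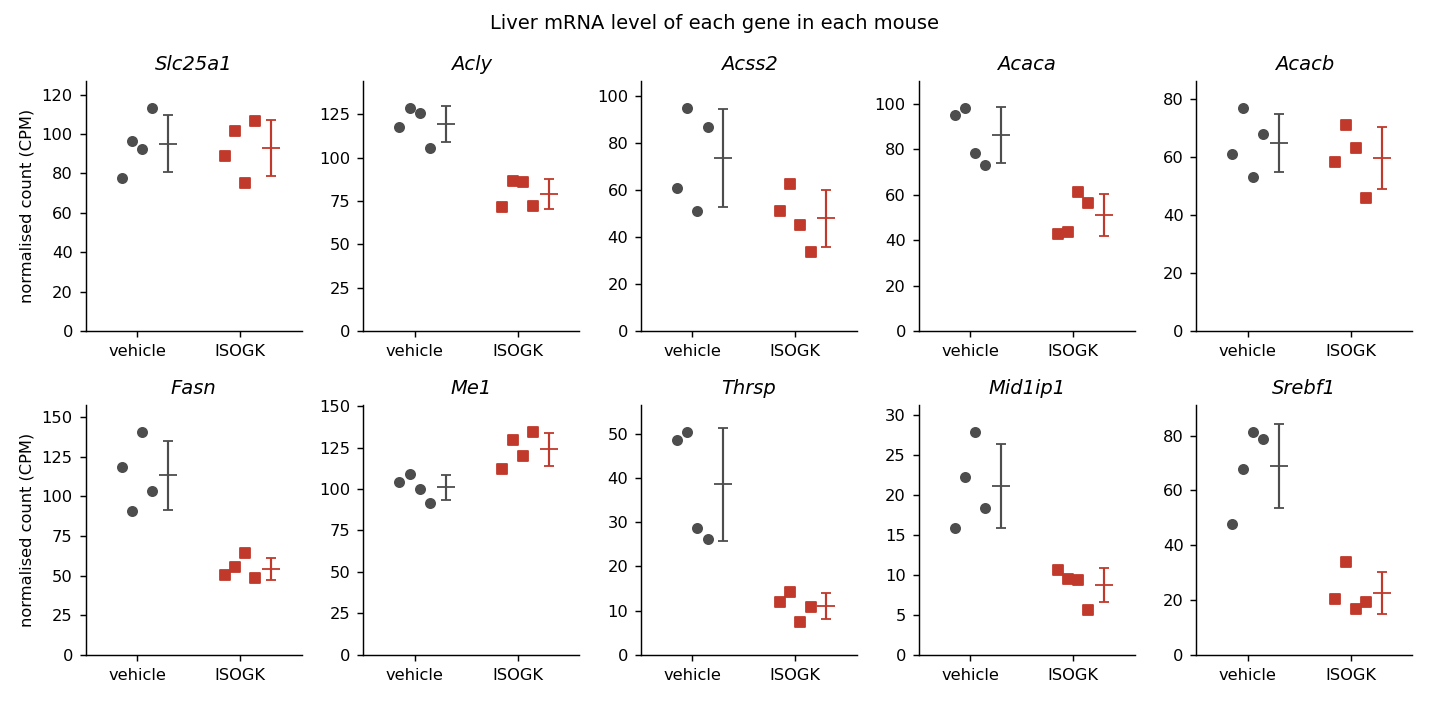
Level of each gene in each mouse, in CPM on axes that start at 0, with vehicle and ISOGK mice side by side and bars for the mean and SD of 4 mice. The groups are apart for *Acly*, *Acaca*, *Fasn*, *Thrsp*, *Mid1ip1* and *Srebf1* (ISOGK lower) and for *Me1* (ISOGK higher), and overlap for *Acss2*, *Slc25a1* and *Acacb*.

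*Acly* encodes ATP citrate lyase (GRCm38 chromosome 11, 100476353 to 100528000, minus strand). It was at 117, 129, 126 and 106 CPM in the vehicle mice and at 71.4, 86.5, 86.1 and 72.2 CPM in the ISOGK mice. The highest ISOGK mouse lay under the lowest vehicle mouse. The vehicle mean was 119 ± 10.4 CPM and the ISOGK mean 79.0 ± 8.40 CPM (± SD, 4 mice in each group, here and throughout), a fall to 66.2% of vehicle with a log2 fold change of -0.60 (SE 0.10) and an edgeR adjusted p of 0.00591. These transcript counts say nothing of the amount or activity of the ACLY protein, the reported target.

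*Slc25a1*, the mitochondrial citrate carrier directly upstream (chromosome 16, 17925223 to 17928219, minus strand), was at 77.9, 96.7, 92.6 and 113 CPM in vehicle and 89.0, 101, 74.9 and 107 CPM in ISOGK mice. The groups overlapped almost completely. The means were 95.1 ± 14.5 and 93.0 ± 14.2 CPM, a log2 difference of -0.03 (SE 0.13, adjusted p = 0.911). Within each library, the log2 ratio of *Acly* to *Slc25a1* ranged from -0.10 to 0.59 in vehicle and from -0.56 to 0.20 in ISOGK mice, which overlap. That ratio was chosen after the values were seen and was not tested.

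*Acss2*, the cytosolic acetyl-CoA synthetase of the acetate route (chromosome 2, 155517948 to 155585724, plus strand), was at 61.0, 94.9, 51.0 and 86.8 CPM in vehicle mice. In ISOGK mice it was at 51.1, 62.5, 45.1 and 33.5 CPM. The groups overlapped, with vehicle mice 1 and 3 inside the ISOGK range. The log2 difference was -0.61 (SE 0.23), close to the -0.60 of *Acly*, but it did not pass the test (adjusted p = 0.148, and 0.0502 to 0.311 over 15 alternatives). Exons shared with neighbouring genes bear on this count, as 3.89% of the exonic bases of *Acss2* also belong to *Gss*, which had a median of 1305 counts, and the use of strand in counting is not stated.

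The citrate and acetate routes were set against each other by ratios within each library, which do not depend on scaling. The log2 ratio of *Acss2* to *Acly* was -0.94, -0.44, -1.30 and -0.28 in vehicle and -0.48, -0.47, -0.93 and -1.11 in ISOGK mice. The mean difference was -0.0043 (SE 0.285), with an interval of -0.80 to 0.84 and p = 0.971 in a two-sided exact permutation test over mice. No shift from one route to the other was detectable, and the interval leaves room for a ratio change of either sign. The log2 ratio of *Acss2* to *Slc25a1* was lower by a mean of -0.57 (SE 0.29, interval -1.63 to 0.15, exact permutation p = 0.114, adjusted p = 0.229 over the 4 ratios tested). Its ISOGK values overlapped those of vehicle, and ISOGK mouse 4 stood apart from the other ISOGK mice. With 4 against 4 mice the smallest p this test can give is 0.0286.

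**Figure D2:**
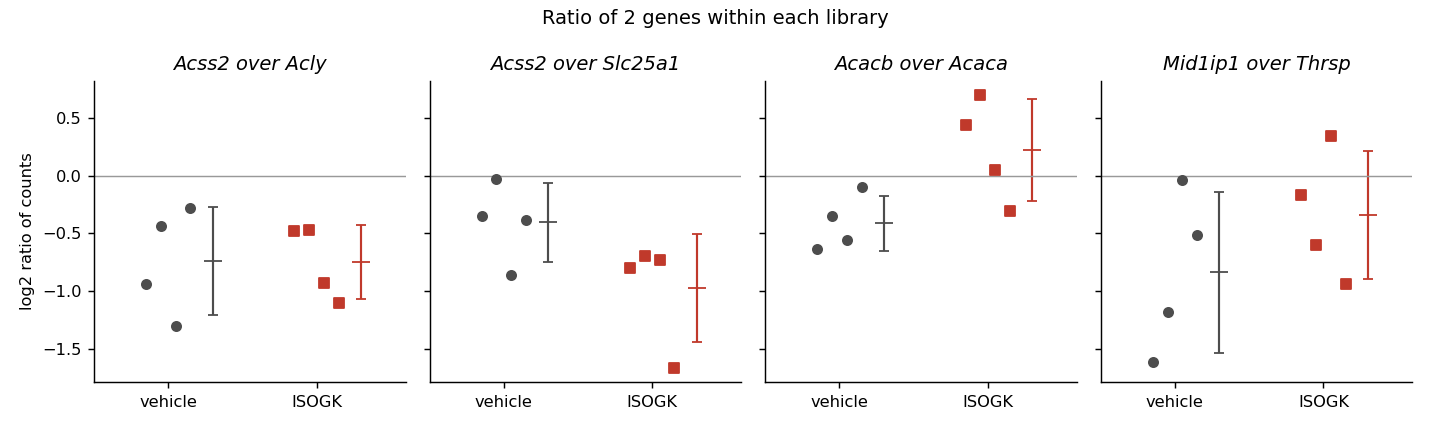
Log2 ratio of the counts of paired genes within each library, for vehicle and ISOGK mice, with bars for the mean and SD of 4 mice. The ratios of *Acss2* to *Acly* average -0.74 in vehicle and -0.75 in ISOGK mice, and each of the 4 tested ratios has overlapping groups.

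Acetyl-CoA carboxylase has a cytosolic form that feeds fatty acid synthesis and a mitochondria-bound form whose malonyl-CoA restrains fatty acid oxidation. *Acaca*, the cytosolic form (chromosome 11, 84129672 to 84401651, plus strand), was at 94.9, 98.2, 78.3 and 72.9 CPM in vehicle and 42.9, 43.7, 61.1 and 56.5 CPM in ISOGK mice. The groups did not overlap. It fell to 59.3% of vehicle (log2 fold change -0.75, SE 0.14, edgeR adjusted p = 0.00801).

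*Acacb*, the mitochondria-bound form (chromosome 5, 114146535 to 114250761, plus strand), was at 60.9, 76.8, 53.2 and 67.9 CPM in vehicle and 58.0, 71.0, 63.0 and 45.7 CPM in ISOGK mice. These ranges overlapped (log2 difference -0.12, SE 0.14, adjusted p = 0.652). The log2 ratio of *Acacb* to *Acaca* was below 0 in all 4 vehicle mice, from -0.64 to -0.10, and above 0 in 3 of 4 ISOGK mice, with -0.30 in ISOGK mouse 4. Its difference of 0.63 (SE 0.25, interval -0.19 to 1.33) did not pass the exact permutation test (p = 0.0571, adjusted p = 0.229), so a difference in response between the paralogs was not established.

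*Fasn*, fatty acid synthase (chromosome 11, 120805846 to 120824547, minus strand), was at 118, 90.5, 141 and 103 CPM in vehicle and 50.4, 55.2, 63.9 and 48.3 CPM in ISOGK mice. The highest ISOGK mouse was well under the lowest vehicle mouse. It fell to 48.1% of vehicle, the smallest adjusted p of the 10 genes (0.00163). Its SD was 6.94 CPM among ISOGK mice and 21.6 CPM among vehicle mice, or 12.7% and 19.1% of the group means.

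*Me1*, the cytosolic malic enzyme that returns the oxaloacetate carbon of citrate cleavage to pyruvate and yields NADPH (chromosome 9, 86581371 to 86695953, minus strand), stood alone in its direction. It was at 104, 109, 99.7 and 91.3 CPM in vehicle and 112, 130, 120 and 135 CPM in ISOGK mice. Every ISOGK mouse was above every vehicle mouse, a pattern found in 7.92% of all genes. The log2 difference of 0.30 (SE 0.09) did not pass edgeR's test (adjusted p = 0.0774), passed DESeq2's (adjusted p = 0.0379), and was 0.16 with scaling by library size alone (adjusted p = 0.268). Per library, the log2 ratio of *Fasn* to *Me1* was between -0.27 and 0.50 in vehicle and between -1.48 and -0.91 in ISOGK mice, a ratio chosen after the values were seen and not tested.

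*Thrsp* (Spot 14) and *Mid1ip1* (Spot 14-related) encode related small proteins that act on acetyl-CoA carboxylase, MID1IP1 by promoting its assembly into active polymers. *Thrsp* (chromosome 7, 97412938 to 97417730, minus strand) was at 48.7, 50.5, 28.7 and 26.3 CPM in vehicle and 11.9, 14.3, 7.35 and 10.8 CPM in ISOGK mice. The vehicle mice fell into a higher and a lower pair, and all ISOGK mice lay below both. At 28.8% of vehicle (log2 fold change -1.79, SE 0.27, edgeR adjusted p = 0.00627) it had the most negative fold change of the 10 genes.

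*Mid1ip1* (chromosome X, 10715013 to 10719690, plus strand) was at 15.9, 22.2, 27.9 and 18.4 CPM in vehicle and 10.6, 9.45, 9.33 and 5.66 CPM in ISOGK mice. The groups did not overlap. It fell to 41.5% of vehicle (log2 fold change -1.27, SE 0.21, edgeR adjusted p = 0.00572), although 25.5% of its exonic bases overlap the antisense gene *Gm14493*, whose reads cannot be told apart from it without strand. The log2 ratio of *Mid1ip1* to *Thrsp* differed by 0.50 between groups (SE 0.45, interval -0.88 to 1.96, exact permutation p = 0.314, adjusted p = 0.419), and its groups overlapped.

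*Srebf1* (chromosome 11, 60199089 to 60222581, minus strand) encodes SREBP-1a and SREBP-1c from separate starts, which counts per gene do not separate. It was at 47.7, 67.9, 81.5 and 78.7 CPM in vehicle and 20.6, 34.0, 16.9 and 19.3 CPM in ISOGK mice. ISOGK mouse 2 was the highest of its group and still below vehicle mouse 1, the lowest of its own. It fell to 32.9% of vehicle (log2 fold change -1.60, SE 0.24, edgeR adjusted p = 0.00592).

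**Figure D3:**
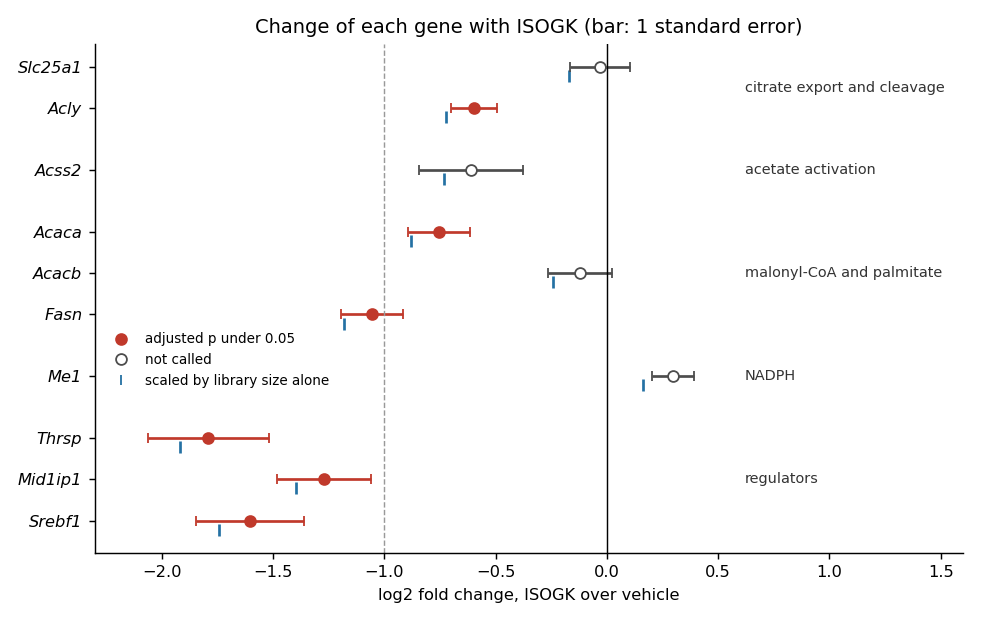
Log2 fold change of each gene, ISOGK over vehicle, with bars of 1 SE, filled points for an edgeR adjusted p under 0.05, blue ticks for scaling by library size alone and a dashed line at -1. *Thrsp*, *Srebf1*, *Mid1ip1* and *Fasn* lie below -1, *Acaca* and *Acly* between -0.75 and -0.60, and *Me1* alone lies above 0.

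Divided by exon length, the levels differed in order between the groups. In vehicle livers *Slc25a1* was highest at 44.0 CPM per kb of exon, followed by *Me1* at 26.3 and *Acly* at 22.6 CPM per kb, and *Acaca* was lowest at 5.04 CPM per kb. Only *Slc25a1* was apart from its nearest neighbour there, and all other neighbours overlapped. In ISOGK livers *Slc25a1* (43.0 CPM per kb) and *Me1* (32.2 CPM per kb) were again first, *Acly* came next with no overlap with either neighbour, and the other 7 genes were between 2.99 and 6.17 CPM per kb. Exon lengths were those of all annotated transcripts joined, which lowers these levels for genes with many transcripts.

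**Figure D4:**
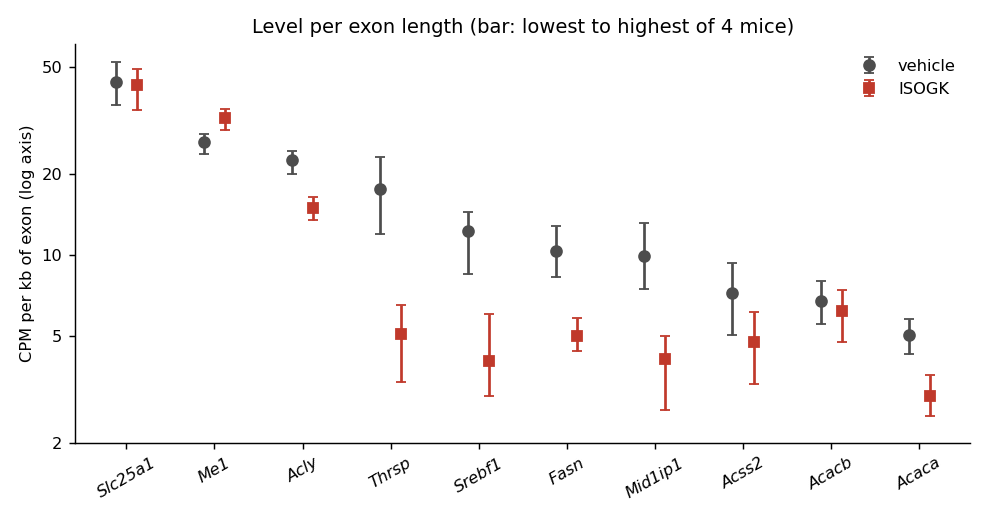
Level of each gene per kb of annotated exon, in CPM per kb on a log axis, as the mean of 4 mice with bars from the lowest to the highest mouse. *Slc25a1* and *Me1* are the highest in both groups, with *Acly* next after them.

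Genes around the 10 were described by lists on the steps before, beside and after them. Those lists held 64 further genes, of which 62 were tested, 5 fell and 5 rose. Among all genes tested, the shares were 3.44% lower and 4.11% higher, and each list count below is to be read beside these shares. With so few genes in a list, 1 call is not read as a result about the list. The citrate route had 10 genes tested, with *Acly* the only one that fell and none that rose (median log2 fold change 0.09), and at an unadjusted p under 0.05 it had 2 lower and 3 higher. DESeq2 called 2 lower and 2 higher there, and limma-voom 1 and 0. Citrate synthase *Cs* (0.16, adjusted p = 0.275), the plasma membrane citrate carrier *Slc13a5* (0.95, adjusted p = 0.258) and cytosolic isocitrate dehydrogenase *Idh1* (-0.02, adjusted p = 0.906) did not pass the test.

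In the acetate route, 8 genes were tested, none fell and 2 rose (median -0.11). At an unadjusted p under 0.05 this list had 3 lower and 2 higher, DESeq2 called 2 and 2, and limma-voom 0 and 2. *Slc16a1*, the monocarboxylate carrier MCT1, was at 47.4, 39.4, 37.1 and 49.0 CPM in vehicle and 67.0, 116, 103 and 138 CPM in ISOGK mice. The groups were apart, and the gene rose by 1.29 on the log2 scale (SE 0.20, edgeR adjusted p = 0.00449). *Acot12*, the cytosolic thioesterase that releases acetate from acetyl-CoA, rose from 123 ± 5.70 to 177 ± 25.6 CPM (log2 fold change 0.52, SE 0.11, adjusted p = 0.0146). The mitochondrial synthetase *Acss1* had too few counts to be tested.

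Of 10 genes for NADPH supply none fell and *H6pd*, the glucose dehydrogenase of the endoplasmic reticulum, rose from 580 ± 30.5 to 797 ± 67.2 CPM (log2 fold change 0.46, edgeR adjusted p = 0.0158). This list had 1 lower and 2 higher genes at an unadjusted p under 0.05, DESeq2 called 0 and 2, and limma-voom 0 and 1. The pentose phosphate dehydrogenases *G6pdx* (-0.21, adjusted p = 0.405) and *Pgd* (-0.17, adjusted p = 0.275) did not pass. The separate mitochondrial pathway of fatty acid synthesis had 5 genes tested, and edgeR, DESeq2 and limma-voom called 0 of them, as did an unadjusted p under 0.05. Of 8 genes tested for the steps after palmitate, 1 fell and 1 rose (median 0.06). *Elovl6*, which elongates it, fell from 23.2 ± 6.56 to 12.6 ± 2.74 CPM (-0.88, adjusted p = 0.0393), whereas *Gpam*, the acyltransferase that begins glycerolipid synthesis, rose from 146 ± 22.4 to 198 ± 14.1 CPM (0.44, adjusted p = 0.0416). *Scd1*, the desaturase, did not pass (-0.36, adjusted p = 0.423).

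Among 16 genes that control SREBP-1 or work beside it, 3 fell and 1 rose (median -0.07), with 4 lower and 3 higher at an unadjusted p under 0.05 and 3 lower and 1 higher by both DESeq2 and limma-voom. Without *Srebf1* itself, 2 of 15 fell and 1 rose, beside 3.44% and 4.11% of all genes. SREBP precursors leave the endoplasmic reticulum with SCAP and are held there by INSIG-1 and INSIG-2, and these retention genes moved in opposite directions. *Insig1* was at 53.4, 58.5, 62.9 and 58.4 CPM in vehicle and 36.6, 34.3, 43.4 and 34.5 CPM in ISOGK mice, and fell by 0.65 on the log2 scale (SE 0.10, edgeR adjusted p = 0.00308). *Insig2* was at 235, 210, 126 and 154 CPM in vehicle and 450, 612, 476 and 478 CPM in ISOGK mice, and rose by 1.48 on the log2 scale (SE 0.19, edgeR adjusted p = 0.00178). Neither gene had overlapping groups. *Scap* (0.33, adjusted p = 0.0843), *Nr1h3*, the liver X receptor alpha gene (-0.08, adjusted p = 0.646), and *Srebf2* (0.19, adjusted p = 0.303) did not pass.

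*Mlxipl*, encoding the glucose-responsive factor ChREBP, was at 76.0, 104, 88.9 and 87.7 CPM in vehicle and 48.7, 42.4, 40.5 and 32.3 CPM in ISOGK mice. The groups were apart (log2 fold change -1.12, SE 0.13, edgeR adjusted p = 0.000908). Of 16 tested genes listed here as targets of SREBP-1c or ChREBP, 7 fell and 2 rose (median -0.48). The 7 were *Acly*, *Acaca*, *Fasn*, *Thrsp*, *Mid1ip1*, *Elovl6* and the glycolytic gene *Pklr*. The 2 that rose were *Gpam* and *Insig2*. Of these 16 genes, 9 are among the 10 genes described above, so the count and median largely repeat their values, and of the 7 others 2 fell and 2 rose (median -0.18), beside 3.44% and 4.11% of all genes. *Insig1*, which SREBPs induce and which fell, was not on this list. Whether *Insig2* belongs on it was not tested, and the count of genes that rose depends on its place there. *Pklr*, liver pyruvate kinase, went from 135 ± 3.50 to 55.4 ± 6.73 CPM (log2 fold change -1.28, edgeR adjusted p = 5.2e-05). *Pnpla3*, another listed target, had too few counts to be tested.

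Among 10 tested genes that set carboxylase activity or remove malonyl-CoA, which include subunits of AMP-activated protein kinase and malonyl-CoA decarboxylase, only *Thrsp* and *Mid1ip1* fell and none rose (median -0.11), with 3 lower and 0 higher at an unadjusted p under 0.05, and 2 lower and 0 higher by both DESeq2 and limma-voom. Of the 3 first sterol steps that share cytosolic acetyl-CoA, *Acat2*, which joins acetyl-CoA units, fell from 24.1 ± 2.34 to 17.4 ± 1.56 CPM (-0.47, adjusted p = 0.0239). None of the 3 rose, DESeq2 and limma-voom each called 1 lower and 0 higher, and 1 was lower and 1 higher at an unadjusted p under 0.05. Of the list genes called, *Insig1*, *Insig2*, *Mlxipl*, *Pklr* and *Slc16a1* passed the test in all 15 alternatives, whereas *Acot12* passed in 13, *H6pd* in 12, *Acat2* in 11, *Elovl6* in 9 and *Gpam* in 7.

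**Figure D5:**
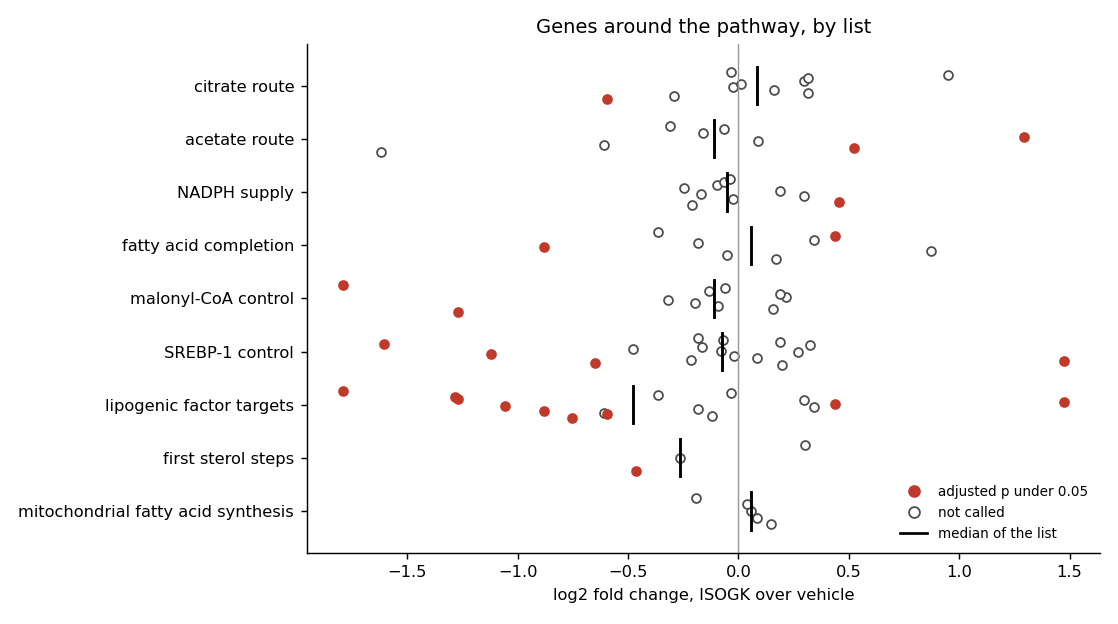
Log2 fold change, ISOGK over vehicle, of every tested gene of each list, with filled points for genes at an edgeR adjusted p under 0.05 and a bar at the median of the list. The lipogenic factor targets have a median of -0.48, but 9 of the 16 are among the 10 genes shown above, and the 7 others split into 2 lower, 2 higher and 3 not called.

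Genes whose pattern over the 8 mice was closest to that of *Acly*, by the root mean square difference of centred log2 CPM, were *Pygl* (0.0999), *Sfxn5* (0.102) and *Slc25a44* (0.102). For *Srebf1* they were *Serpina6* (0.229), *Mgst3* (0.327) and *Klhdc7a* (0.347). None of the 10 genes was among them.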

How the data were processed

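Liver RNA of 4 vehicle and 4 ISOGK mice was analysed. The authors aligned single-end reads with HISAT2 to the mouse genome (mm10 per the labels), and the deposited values are raw counts per gene symbol from StringTie. The strand setting and annotation release are not given in the sources used here. The DMSO columns were taken as the vehicle samples of the same number. Counts were tested with edgeR 4.0.16 (R 4.3.3, quasi-likelihood, TMM scaling, robust, minimum count 10), with Benjamini-Hochberg adjustment over all 12307 genes tested. CPM used the TMM-scaled library sizes. Gene positions and exon lengths came from GENCODE M21 and promoters from RefSeq. Ratios were tested by exact permutation over mice (SciPy 1.17.1), with intervals from the shifts that test did not reject. The scripts were tested on simulated data. The depth of 17457106 to 24461854 counts gave each of the 10 genes at least 108 counts in every library.

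The 10 genes and the lists were chosen with earlier results of these data known. Named are the 10 genes, up to 5 called genes of a list in each direction, and a fixed set of regulators and enzymes, of which 1 is not reported here and was left out of its list. Same-numbered samples were not paired, since correlations of their deviations were between -0.014 and 0.085. Alternatives were DESeq2 1.42.0, limma-voom 3.58.1, other scalings, no filter, no robust option, a replicate block and leaving out each mouse.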

Additional observations from a re-analysis of the deposited data

Results flagged for a closer look

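Of 70 sets of 4 mice examined, 5 held a mouse whose distance to its nearest neighbour took up a larger share of the group's range than Dixon's critical value allows, and chance gives about 1 in 20 such sets. *H6pd* was at 696 CPM in ISOGK mouse 1 and between 824 and 840 CPM in the other ISOGK mice, and without that mouse its log2 fold change was 0.52 (edgeR adjusted p = 0.0104). *Scap* was at 96.8 CPM in vehicle mouse 4, against 79.4 to 81.9 CPM in the other vehicle mice, and at 125.5 CPM in ISOGK mouse 2, against 98.0 to 102 CPM in the other ISOGK mice. Its log2 difference was 0.39 without the first (adjusted p = 0.0715) and 0.24 without the second (adjusted p = 0.211). The log2 ratio of *Acss2* to *Slc25a1* was -1.67 in ISOGK mouse 4 and -0.80 to -0.70 in the other ISOGK mice, and the difference between groups was -0.34 without that mouse. *Pnpla3* was at 0.049 CPM, a single read, in ISOGK mouse 1 and at 0 in the other ISOGK mice.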

How the results depend on the processing

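*Acly*, *Acaca*, *Fasn*, *Thrsp*, *Mid1ip1* and *Srebf1* stayed lower and past the threshold in all 15 alternatives, with adjusted p of at most 0.0346, and 147 of the 150 values recomputed for the 10 genes kept direction and call. DESeq2 called 1 of the 10 genes, *Me1*, higher. The direction of *Slc25a1* was not fixed, with log2 differences of -0.12 to 0.062 on leaving out each mouse (0.062 without vehicle mouse 4 and 0.053 without ISOGK mouse 3), nor was that of *Idh1*, at -0.069 to 0.019 (0.019 without ISOGK mouse 3). Scaling by library size alone gave 9 lower and 2 higher of the further list genes, against 5 and 5, and it shifts all genes down by construction, and DESeq2 gave 8 lower and 7 higher. Leaving out each mouse gave 3 to 5 lower list genes, with 3 without vehicle mouse 2 or 3 or ISOGK mouse 2, and 3 to 5 higher, with 3 without vehicle mouse 2 or 3. Of the 285 values for 19 named list genes, 261 kept direction and call. Adjusted p rose past the threshold for *Acot12* without vehicle mouse 2 (0.0608), for *H6pd* without vehicle mouse 1 or 3 (0.0522 and 0.0548), for *Acat2* without vehicle mouse 2, 3 or 4 or ISOGK mouse 2 (at most 0.0864), for *Elovl6* without any mouse except vehicle mouse 4 and ISOGK mouse 3 (at most 0.101) and for *Gpam* without any mouse except vehicle mouse 1 (at most 0.127). Library size alone ended the calls on *Acot12*, *H6pd* and *Gpam*. With a replicate block, 6 of the 10 genes were lower, and no call on them changed. Over all genes, leaving out vehicle mouse 2 gave 160 lower and 219 higher calls and DESeq2 661 and 744, against 423 and 506.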
